A study of Mus musculus with 4 samples.

Results

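Proliferating monocytes and macrophages were examined in 4 mouse single-cell RNA-seq libraries, 1 for each of the groups 2DG, aPDL1, 2DG_aPDL1 and ctrl. A cell was a member when it held at least 3 unique molecular identifiers (UMIs, counts of single transcript molecules) of Mki67 and Top2a together, at least 2 of Csf1r and Adgre1 together and at least 3 of Lyz2. It also held at most 3 UMIs of the resident macrophage genes Timd4, Prg4, Alox15 and Gata6 and none of Cd3e, Cd3d, Cd3g and Cd79a, which mark T and B cells. Members were thus chosen by the measured counts of these genes, so their levels are a description. This rule found 338 members among 35372 kept cells of 38068 barcodes. There were 72 members in the 2DG library, 64 in the aPDL1 library, 64 in the 2DG_aPDL1 library and 138 in the ctrl library. They came from 1800, 2465, 2489 and 2513 cells in the same order that met the rule with its Mki67 and Top2a condition left aside, called monocytes and macrophages from here on. The cells with 0 UMIs of Mki67 and Top2a among these, 1436, 2074, 2061 and 2065 in the same order, served as the non-proliferating comparison.

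The study's title places it in ovarian tumours and names glycan targeting and immune checkpoint blockade. 2DG is 2-deoxy-D-glucose, a glucose analogue that interferes with glycolysis and with the joining of N-linked glycans to proteins. aPDL1 names blockade of PD-L1, the ligand of the inhibitory T cell receptor PD-1, the 2DG_aPDL1 library received both and is called the combination below, and ctrl is the control. The series text speaks of young and aged mice, and the labels used here give no age, strain, dose, time or number of animals for a library. With 1 library per group there is no replicate, so no test was made, and every difference below is a difference between single libraries that also differ in whatever else set them apart.

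Monocytes leave the bone marrow, enter tissues and can become macrophages there. Macrophages can also divide in place, driven mainly by colony-stimulating factor 1 acting on its receptor, the product of Csf1r. Division runs from DNA synthesis in S phase, when histones are made, to G2 and mitosis, and Mki67 and Top2a, which encode the proliferation antigen Ki-67 and DNA topoisomerase II alpha, peak in G2 and mitosis.

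The tissue is labelled lymph node in all 4 libraries. By simple marker gates, T cells made up 34.1%, 28.5%, 28.2% and 4.89% of kept cells in the 2DG, aPDL1, combination and ctrl libraries, and B cells 1.31%, 2.19%, 4.47% and 0.693%. Monocytes and macrophages made up 22.7%, 27.3%, 26.8% and 27.6%. Neutrophil-like cells made up 1.6%, 1.27% and 0.904% with treatment, against 16.7% in ctrl. B cells, a defining cell of lymph nodes, were thus few. Library totals were 61859753, 62823127, 65369018 and 73885214 UMIs, and each pair of libraries shared 22 to 30 cell barcodes, none of them a member in both.

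The members carried a macrophage gene, C1qa, beyond those of the rule. C1qa, a subunit of the complement component C1q that tissue macrophages make, was at 2184, 2800, 2315 and 2266 CPM (UMIs per 1000000 UMIs of all members of a library) in the 2DG, aPDL1, combination and ctrl libraries, against 1223, 866, 1177 and 616 CPM in the non-proliferating cells. Ccr2, the receptor that brings monocytes into tissue, was at 382, 438, 319 and 437 CPM in members. The rule's own genes, given as description, were at 472, 347, 429 and 519 CPM for Mki67, 408, 283, 243 and 384 CPM for Top2a, and 398, 464, 484 and 475 CPM for Csf1r.

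Genes of other cell types were present in some members. The summed level of 15 T and NK cell genes was 49.6, 68.6, 212 and 33 CPM in the 2DG, aPDL1, combination and ctrl members. Non-proliferating cells had 51.7, 127, 114 and 78.5 CPM in the same order. In members 6, 3, 3 and 5 of these 15 genes, which are not genes of the rule, were at 0. In the combination 1 member held 64.2% of the UMIs of this list. The dendritic cell list of 15 genes summed to 776, 683, 607 and 601 CPM in members, against 548, 579, 535 and 485 CPM in non-proliferating cells. At least 20 UMIs of it were held by 7, 9, 4 and 11 members, with at most 11.8% of a library's UMIs in 1 cell. Of its 14 genes measured against non-proliferating cells, 4, 3, 1 and 9 were at least 1.5-fold higher in members and 0, 1, 3 and 1 lower, with medians of 0.54, 0.42, 0.20 and 1.54. Of 11956 genes, 15.6%, 20.4%, 15.2% and 27.5% were higher. Against non-proliferating cells of matched depth its medians were 0.46, 0.35, 0.08 and 1.76. Those of the C1q macrophage list were then -0.12, 0.34, 0.10 and 1.21. Its defining gene Zbtb46, a transcription factor of conventional dendritic cells, was at 27.3, 19.3, 13.6 and 13 CPM. At least 20 UMIs of the neutrophil list were held by 6, 3, 2 and 22 members, and of the resident peritoneal macrophage list by 0, 1, 7 and 4. The neutrophil gene S100a9 was at 3587, 3.87, 1346 and 733 CPM, and 1 cell held 66.5% of these UMIs in 2DG and 98.7% in the combination. Counted by cell, 4 of 72, 1 of 64, 4 of 64 and 0 of 138 members held at least 20 UMIs of a granulocyte precursor, T and NK, B, epithelial, stromal, or mast and erythroid list. The list medians between libraries and the ratios of named genes between libraries were recomputed without them. Counts of list genes and comparisons with non-proliferating cells were not.

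The members were deeper than the non-proliferating cells. Median UMIs per cell were 15222, 15932, 13045 and 18889 in the 2DG, aPDL1, combination and ctrl members, against 8416, 7334, 7557 and 12149 in the non-proliferating cells. The cells with the highest doublet scores of their library included 16.7%, 12.5%, 23.4% and 10.9% of the members, against 3.27%, 6.36%, 7.38% and 10.1% of the non-proliferating cells. Since a deeper cell reaches a UMI threshold more easily, the main shares of cells are given at own depth and again after each cell was thinned to 5000 UMIs. Thinning left out 132, 282, 232 and 212 shallower monocytes and macrophages, 2, 2, 0 and 6 members among them. For shares of proliferating cells the rule was then applied again to the thinned counts. This gave 1318, 1805, 1761 and 1411 monocytes and macrophages, against 1800, 2465, 2489 and 2513 at own depth, with the largest drop in ctrl. Other thinned values keep the cells chosen at own depth.

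Proliferating cells were a smaller share of monocytes and macrophages in each treated library than in ctrl. The 2DG library held 4% (95% interval 3.14 to 5.01), the aPDL1 library 2.6% (2.01 to 3.3) and the combination 2.57% (1.99 to 3.27), against 5.49% in ctrl (4.63 to 6.46). The ctrl share was 1.37, 2.12 and 2.14 times the share of the 2DG, aPDL1 and combination libraries, ratios that share the ctrl library. The intervals are exact binomial (Clopper-Pearson) and cover counting error only. Those of aPDL1 and the combination lay below that of ctrl, while that of 2DG overlapped it. Of all kept cells, members made up 0.906%, 0.708%, 0.689% and 1.52%.

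Ctrl had the highest share in every way of counting proliferating cells that was tried, while the order of aPDL1 and the combination varied. With at least 5 UMIs of Mki67 and Top2a the shares were 2.39%, 1.38% and 1% in the 2DG, aPDL1 and combination libraries, against 3.94% in ctrl. After thinning to 5000 UMIs they were 2.43%, 1.33% and 0.909%, against 3.61%. A count by 3 genes outside the rule, Pclaf, Birc5 and Tyms, gave 2.67%, 1.78% and 1.04%, against 4.3%. Pclaf encodes a partner of the replication clamp, Birc5 the mitotic protein survivin, and Tyms thymidylate synthase.

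**Figure D1:**
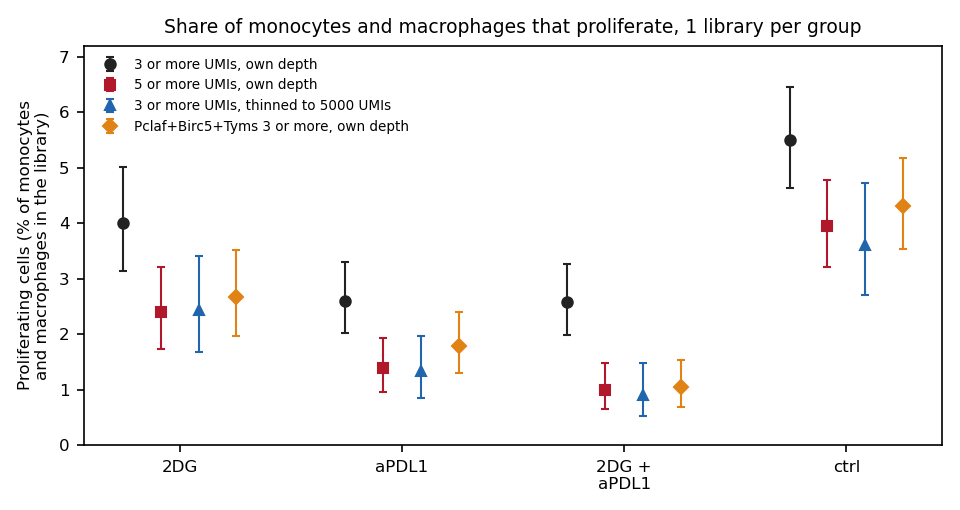
Proliferating cells as a percentage of the monocytes and macrophages of each library, counted in 4 ways, with exact 95% binomial intervals that cover counting error only. Ctrl is highest in each of the 4 ways, at 5.49% by the rule, and the combination lowest in each, at 2.57% by the rule beside 2.6% with aPDL1.

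The background of the threshold was read from neutrophil-like cells. Neutrophils in tissue do not divide, and neutrophil-like cells reached the Mki67 and Top2a threshold in 2.36% with 2DG (3 of 127 cells), 0 of 115 cells with aPDL1, which allows up to 3.16%, 3.57% in the combination (3 of 84 cells), and 0.329% in ctrl (5 of 1518 cells). Without cells that held at least 20 UMIs of granulocyte precursor genes, these became 0 of 100 cells, which allows up to 3.62%, 0 of 89, which allows up to 4.06%, 1 of 76 (1.32%) and 3 of 1434 (0.209%). The member share of monocytes and macrophages was above the neutrophil-like share in 2DG and ctrl, and within the limit that 0 of 115 cells allows in aPDL1. The combination share of 2.57% was below the 3.57% of all its neutrophil-like cells and above the 1.32% without precursor genes. The intervals of these were 0.743 to 10.1 and 0.0333 to 7.11, so the combination share could not be placed above or below background. The interval of 0.49 to 6.75 for all neutrophil-like cells with 2DG also covered the member share there. The median depth of the neutrophil-like cells was 3219, 2766, 2668 and 3972 UMIs, well under that of the members. In T cells, which do divide, the share was 15.2%, 11.8%, 9.58% and 11.9%.

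The cells nearest the threshold differed between libraries. The 2DG, aPDL1, combination and ctrl libraries had 20, 17, 30 and 19 members with exactly 3 UMIs of Mki67 and Top2a, or 27.8%, 26.6%, 46.9% and 13.8% of the members. Their level of 2 other sets of cell cycle genes, of S phase and of G2 and mitosis, was 2521, 2543, 1747 and 2249 CPM. Cells just outside, with 2 UMIs, had 2160, 1979, 1823 and 2199 CPM, and cells with 0 UMIs 1581, 1606, 1590 and 1499 CPM. Members with at least 6 UMIs, 51.4%, 43.8%, 31.2% and 64.5% of the members, had 9634, 8492, 9638 and 9148 CPM. In the combination the cells at the threshold therefore lay close to the non-proliferating level of cell cycle genes, and cells far above it were as high as in the other libraries.

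**Figure D2:**
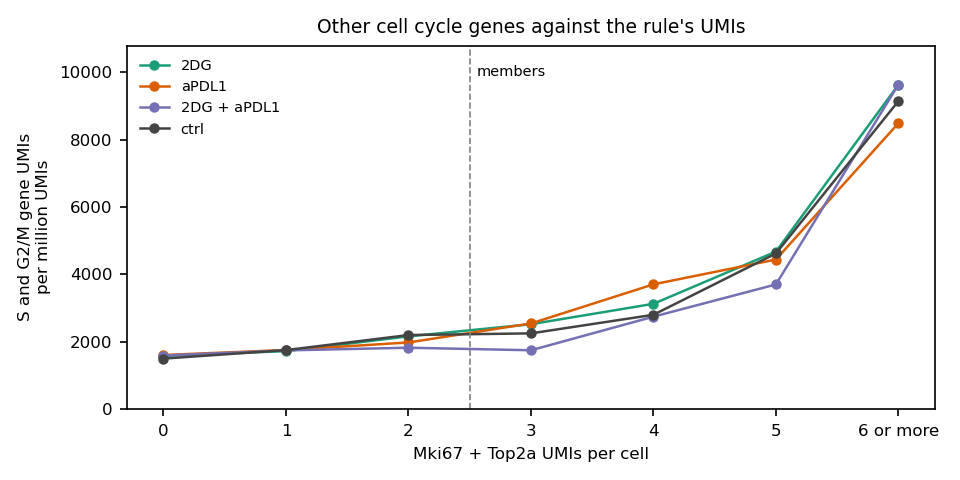
Summed level of S phase and G2/M genes, Mki67 and Top2a left out, against the Mki67 and Top2a UMIs of a cell, for each library, in CPM. Cells right of the dashed line are members, and the level lies between 8492 and 9638 CPM at 6 or more UMIs in the 4 libraries, against 1747 to 2543 CPM at 3 UMIs.

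Members held C1q genes more often than the non-proliferating cells, and Ly6c2 less often. At least 3 UMIs of C1qa, C1qb and C1qc were found in 72.2%, 78.1%, 64.1% and 87.7% of the 2DG, aPDL1, combination and ctrl members, against 39.2%, 29.1%, 38.3% and 38.8% of the non-proliferating cells. After thinning, 68.6%, 79%, 62.5% and 84.1% of members reached it, against 37.8%, 28.8%, 39.7% and 33.6%. The intervals of members and non-proliferating cells were apart in all 4 libraries at both depths. Ly6c2, which encodes the surface protein Ly6C of classical monocytes, had at least 2 UMIs in 16.7%, 12.5%, 18.8% and 4.35% of members, against 25.4%, 34.5%, 36.3% and 21.1%. After thinning the shares were 12.9%, 11.3%, 15.6% and 2.27%, against 21.8%, 30.7%, 31.8% and 11.9%. The Ly6c2 intervals overlapped in 2DG at both depths and were apart in the other 3 libraries.

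Read the other way, 6.86%, 6.47%, 4.19% and 11.1% of monocytes and macrophages with C1q were proliferating in the 2DG, aPDL1, combination and ctrl libraries, against 1.92%, 0.827%, 1.52% and 1.19% of those without it. After thinning the shares with C1q were 4.8%, 3.85%, 1.36% and 7.7%. The ctrl library was highest among cells with C1q at both depths and not among cells without C1q.

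Genes of the Spp1 and Arg1 type, found on macrophages of hypoxic and wounded tissue, were spread otherwise. At least 3 UMIs of Spp1 and Arg1 were present in 59.7%, 67.2% and 56.2% of the 2DG, aPDL1 and combination members and in 59.4% of ctrl members, against 44.8%, 37.1%, 40% and 70% of non-proliferating cells. After thinning, the members' shares were 48.6%, 50%, 46.9% and 42.4%, against 43.1%, 36.8%, 39.3% and 63.3% of non-proliferating cells. The thinned intervals of members and non-proliferating cells overlapped in each treated library and were apart in ctrl. The non-proliferating ctrl cells thus held these genes more often than the ctrl members, and the members of the 4 libraries had overlapping intervals. Most members with them also held C1q, since cells with both were 54.2%, 59.4%, 45.3% and 50.7% of members, and cells with C1q alone 18.1%, 18.8%, 18.8% and 37%, both at own depth only.

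Genes of MHC class II, which present peptides to CD4 T cells, reached at least 10 UMIs in 84.7%, 95.3%, 85.9% and 73.2% of the 2DG, aPDL1, combination and ctrl members, against 72.5%, 62.7%, 66.1% and 42.8% of non-proliferating cells. After thinning, ctrl members were at 62.1% and treated members at 81.4%, 91.9% and 84.4%. Ctrl was lowest among members and among non-proliferating cells.

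**Figure D3:**
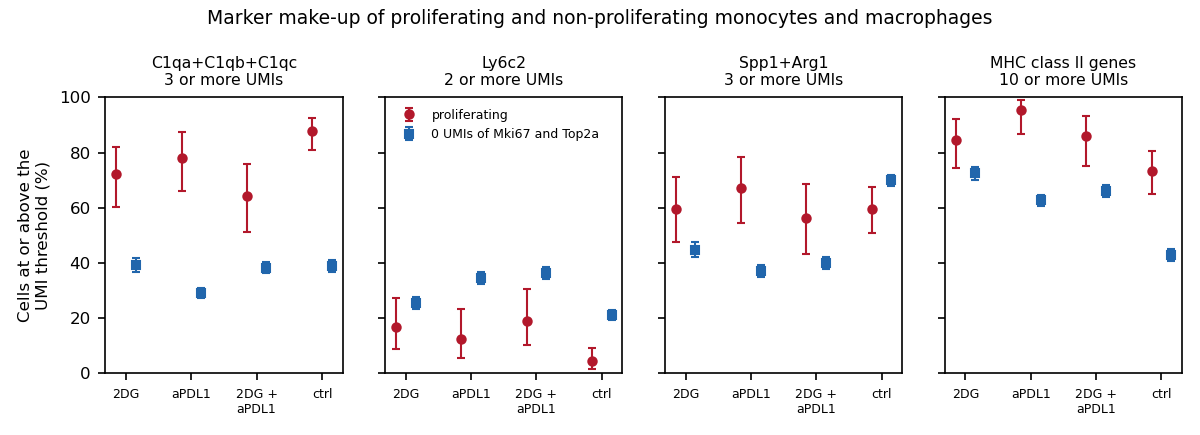
Share of proliferating cells (circles) and of cells with 0 UMIs of Mki67 and Top2a (squares) that reach a UMI threshold of 4 marker sets in each library at own depth, with exact 95% binomial intervals. C1q lies between 64.1% and 87.7% in proliferating cells and between 29.1% and 39.2% in the others.

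Summed over cells, the members were set against the non-proliferating cells of the same library. This contrast was used by the rule, so it is a description. A gene was counted when it differed by at least 1.5-fold with at least 50 UMIs in the higher of the 2 sums. By that rule 15.6%, 20.4%, 15.2% and 27.5% of 11956 genes were higher in members of the 2DG, aPDL1, combination and ctrl libraries, and 9.48%, 12.4%, 7.29% and 10.2% were lower. In all 4 libraries 547 genes were higher, which is 4.58%, and 141 lower, which is 1.18%. Against non-proliferating cells of matched depth these were 150 and 41.

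The 10 genes named as highest in members of all 4 libraries, from outside the cell cycle lists, follow. Pclaf was at 226, 217, 105 and 225 CPM in 2DG, aPDL1, combination and ctrl members, against 3.23, 2.35, 1.28 and 2.03 CPM in non-proliferating cells. Stmn1, whose product stathmin takes microtubules apart, was at 328, 297, 190 and 361 CPM, against 10.6, 9.33, 4.31 and 8.15 CPM. Knl1, a kinetochore scaffold, was at 91.4, 62.8, 58.8 and 99.6 CPM, against 0.902 to 1.75 CPM. Prc1 of the spindle midzone, the formin gene Diaph3, the condensin gene Smc2, the replicative helicase gene Mcm7, the DNA ligase gene Lig1 and the centromere protein gene Cenpp had log2 ratios between 2.68 and 5.65 in all 4 libraries. Ulbp1, which encodes a stress ligand of the NK cell receptor NKG2D, was at 44.4, 70.6, 26 and 51.1 CPM, against 4.66, 4.21, 3.9 and 3.55 CPM.

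Nucleotide synthesis genes followed the cycle, with 13 of 20 higher in members of all 4 libraries and median log2 ratios of 1.40, 1.54, 1.07 and 1.59. Dut, which clears dUTP before DNA synthesis, was at 88, 79.3, 43 and 79 CPM, against 4.07 to 5.86 CPM in non-proliferating cells. Of the Myc and ribosome biogenesis genes, 1 of 21 was higher in all 4 libraries. Of all 11956 genes, 4.58% were higher in all 4, a share near that of the Myc list and far below that of nucleotide synthesis. The Myc list medians were 0.48, 0.88, 0.30 and 0.65, against 0.10, 0.15, 0.09 and 0.24 over the 7096 genes measured between members. Oxidative phosphorylation genes had medians of 0.26, 0.37, 0.09 and 0.27, and glycolysis genes -0.19, -0.17, -0.08 and -0.65. Of the 22 glycolysis genes, 3, 3, 1 and 14 were lower in members of the 2DG, aPDL1, combination and ctrl libraries. Of all genes 9.48%, 12.4%, 7.29% and 10.2% were lower, so the glycolysis counts were near that share except in ctrl.

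Genes lower in members of all 4 libraries included chemokine and interferon-inducible genes. Ccl24, the chemokine eotaxin-2, was at 51.3, 114, 32.8 and 68.1 CPM in 2DG, aPDL1, combination and ctrl members, against 251, 354, 292 and 325 CPM. Gpat3, of triglyceride synthesis, was at 26.5, 30, 31.7 and 83 CPM, against 104, 118, 80.7 and 315 CPM. The interferon-inducible gene Ifi209 was at 57.2, 59, 89.4 and 34.8 CPM, against 143, 178, 222 and 149 CPM, and reads of the related Ifi genes can be hard to tell apart. Ifi213, Ddit4 of the stress response to low oxygen, the neutrophil collagenase gene Mmp8 and Cyp7b1 of oxysterol metabolism were also among the 10 named. Apoc1, Arhgef37 and 9630028H03Rik, the remaining 3, changed sign in at least 1 library against non-proliferating cells of matched depth.

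Among cell type and response lists, 6 of 28 type I interferon genes, 6 of 14 classical monocyte genes, 4 of 18 hypoxia genes and 4 of 18 Spp1 and Arg1 genes were lower in members of all 4 libraries, and none of these lists had a gene higher in all 4. Of all genes, 1.18% were lower and 4.58% higher in all 4. The classical monocyte medians were -0.67, -1.78, -0.80 and -1.91, and against cells of matched depth 0.12, -0.30, -0.16 and -1.73. The Spp1 and Arg1 medians were -0.96, -0.74, -0.38 and -1.58, and at matched depth -1.22, -0.79 and -0.44 in the 3 treated libraries. C1q macrophage genes had medians of 0.55, 1.29, 0.71 and 1.64, which became -0.12, 0.34, 0.10 and 1.21. The C1q and classical monocyte directions therefore held at matched depth in ctrl, and not in every treated library.

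The division genes themselves were compared between libraries next. Summed S phase genes stood at 2317, 2093, 1370 and 2486 CPM in the 2DG, aPDL1, combination and ctrl members, and G2/M genes at 4975, 3877, 3682 and 4727 CPM. The ratio of S to G2/M UMIs was 0.466, 0.54, 0.372 and 0.526, and 0.441, 0.498, 0.401 and 0.482 after thinning. The combination was lowest at both depths. Its thinned interval of 0.356 to 0.451 overlapped those of 2DG, 0.401 to 0.483, and aPDL1, 0.45 to 0.55. Members with more S than G2/M UMIs were 22.2%, 23.4%, 17.2% and 26.1%, with overlapping intervals, and the rule itself draws on genes of G2 and mitosis.

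Replication-dependent histone genes, made in S phase, were lower in aPDL1 and combination members than in ctrl members, and with 2DG the direction depended on which members were taken. Their sum was 2074, 1259 and 888 CPM in 2DG, aPDL1 and combination members, against 2533 CPM in ctrl members. Of 18 measured, 4, 15 and 18 were at least 1.5-fold lower than in ctrl and none higher, where 9.5%, 10.3% and 16.7% of 7096 genes were lower and 6.1%, 7.58% and 8.99% higher in these 3 comparisons. The median log2 ratios were -0.28, -0.83 and -1.63, beside -0.01, 0.02 and -0.08 over all genes. Non-proliferating cells had a like order, with sums of 509, 380, 302 and 691 CPM and medians of -0.29, -0.66 and -1.23. With likely doublets removed the members' medians were -1.80, -1.91 and -1.93, and with at least 5 UMIs of Mki67 and Top2a the aPDL1 median was -0.59. The 2DG median was -0.70 without members holding genes of other cell types, and 0.73 in members without C1q.

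Hist1h2ap was at 266, 132 and 136 CPM in 2DG, aPDL1 and combination members, against 449 CPM in ctrl members. Hist1h1b, a linker histone gene, was at 329, 115 and 148 CPM, against 378 CPM. These genes exist in near-identical copies and lack the poly(A) tails that the kit captures, which limits what their counts say of single genes.

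S phase genes other than histones were lower mainly in the combination. There 28 of 38 were lower than in ctrl, against 3 with 2DG and 9 with aPDL1, and the medians were -0.10, -0.17 and -0.87. In members without C1q the 2DG median was 1.22. The combination was also lower than aPDL1 by a median of -0.74 and than 2DG by -0.81, with 12 and 17 of 38 genes lower, where 8.4% and 7.05% of all genes were. In members without C1q these 2 medians were -0.23 and -1.08. With at least 5 UMIs of Mki67 and Top2a, which leaves 25 combination members, its median over ctrl was -0.40. The G2/M median over ctrl moved to 0.17 in that setting, against -0.44 by the rule. The combination's S phase and G2/M genes were thus nearer to ctrl, or above it, once the members close to the threshold were left aside.

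Single genes followed this, apart from Ccnb1, which was lowest in ctrl. Tyms was at 58.1, 43.5 and 26 CPM in 2DG, aPDL1 and combination members, against 53.3 CPM in ctrl. Mcm7 was at 75.2, 64.8 and 29.4 CPM, against 73.9 CPM. Cdk1, the kinase that drives entry into mitosis, was at 62.4, 37.7 and 26 CPM, against 70.6 CPM, and Ccnb1, its cyclin partner, at 47, 33.8 and 35.1 CPM, against 29.3 CPM. Among nucleotide synthesis genes 10 of 17 were lower in the combination, the list medians being -0.01, -0.01 and -0.83, and the last of these turned to 0.03 in members without C1q. Myc and ribosome biogenesis genes stood at medians of -0.08, 0.08 and -0.50.

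The D-type cyclins that start the cycle went another way. Ccnd1 was at 206 and 278 CPM in 2DG and aPDL1 members and 99.6 CPM in the combination, against 139 CPM in ctrl members. Ccnd2 was at 131, 163 and 70.1 CPM, against 83 CPM. Cdkn1a, which encodes the cycle inhibitor p21, was at 289, 342 and 408 CPM, against 252 CPM. Csf1, the growth factor gene, was at 5.98, 12.6 and 20.4 CPM, against 47.1 CPM, and its receptor gene Csf1r lay between 398 and 484 CPM. Igf1r, a growth factor receptor gene, was at 96.5, 65.7 and 156 CPM, against 202 CPM.

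Interferon response genes were higher in members of the treated libraries. Of 22 measured interferon gamma response genes, 16, 13 and 17 were at least 1.5-fold higher in 2DG, aPDL1 and combination members than in ctrl members, and 1, 1 and 0 lower, against the 6.1%, 7.58% and 8.99% of all genes given above. The median log2 ratios were 0.94, 0.97 and 1.06. Of 19 type I interferon response genes, 11, 12 and 15 were higher and none lower, with medians of 0.72, 0.92 and 1.72. The 3 ratios share the ctrl library.

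Cxcl9, a chemokine that draws T cells bearing CXCR3, was at 992, 1380 and 1490 CPM in 2DG, aPDL1 and combination members, against 264 CPM in ctrl members. At least 3 UMIs of it were found in 51.4%, 57.8% and 45.3% of members, against 25.4%, and after thinning in 38.6%, 48.4% and 39.1%, against 11.4%. Cxcl10, which acts on the same receptor, was at 284, 328 and 484 CPM, against 65.9 CPM. Ctrl was thus the lowest library for both chemokines, with Poisson intervals apart from all 3 treated libraries.

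Gbp2, a guanylate-binding protein gene, was at 291, 309 and 465 CPM in 2DG, aPDL1 and combination members, against 116 CPM in ctrl members. Pdcd1lg2, the gene of the PD-1 ligand PD-L2, was at 97.4, 81.2 and 79.2 CPM, against 19.9 CPM. Cd274, the gene of PD-L1 itself, was at 285, 262 and 398 CPM, against 247 CPM, so only the combination was at least 1.5-fold above ctrl.

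Non-proliferating cells also had both lists above ctrl, with interferon gamma medians of 0.97, 1.12 and 1.39 and type I medians of 0.54, 0.82 and 1.11. Members were lower in type I genes than the non-proliferating cells of their own library by medians of -0.86, -0.67, -0.69 and -1.28. At matched depth these were -0.68, -0.07, -0.13 and -1.16, so the difference was near 0 with aPDL1 and in the combination. Rsad2, an antiviral interferon-inducible gene, was at 25.6, 72.5, 147 and 23.2 CPM in 2DG, aPDL1, combination and ctrl members, against 98.5, 112, 200 and 111 CPM in non-proliferating cells.

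The combination stood above both single treatments in the type I list, by a median of 0.70 over aPDL1 and 0.72 over 2DG, with 8 and 11 of 19 genes higher, where 7.17% and 6.16% of all genes were. In members without C1q, 23 cells of the combination and 14 of aPDL1, the first of these turned to -0.36. Ifih1, a sensor of double-stranded RNA, was at 141, 166, 314 and 65.9 CPM in 2DG, aPDL1, combination and ctrl members, with 24.2%, 49.4%, 25.2% and 18.1% of its UMIs in 1 cell. Isg15, a ubiquitin-like interferon-induced gene, was at 69.2, 104, 143 and 33 CPM.

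Antigen presentation genes were also higher with treatment. Of 12 MHC class II genes measured, 7, 9 and 8 were higher in 2DG, aPDL1 and combination members than in ctrl members and 0, 0 and 2 lower, with medians of 0.63, 0.86 and 0.71. In these comparisons 6.1%, 7.58% and 8.99% of all genes were higher and 9.5%, 10.3% and 16.7% lower. H2-Aa, a class II chain, was at 2993, 3203 and 3273 CPM, against 1755 CPM, and Cd74, the invariant chain, at 8133, 9227 and 8937 CPM, against 5492 CPM. The medians in non-proliferating cells were larger, at 1.53, 1.29 and 1.42, and the 2DG and combination medians were -0.08 and -0.01 in members without C1q. Of 18 MHC class I genes, which present to CD8 T cells, 8, 7 and 10 were higher and none lower, with medians of 0.42, 0.37 and 0.74. Tap1, Tap2, Psmb8 and Psmb9 of this list, and Ciita of the class II list, are also in the interferon gamma list.

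**Figure D4:**
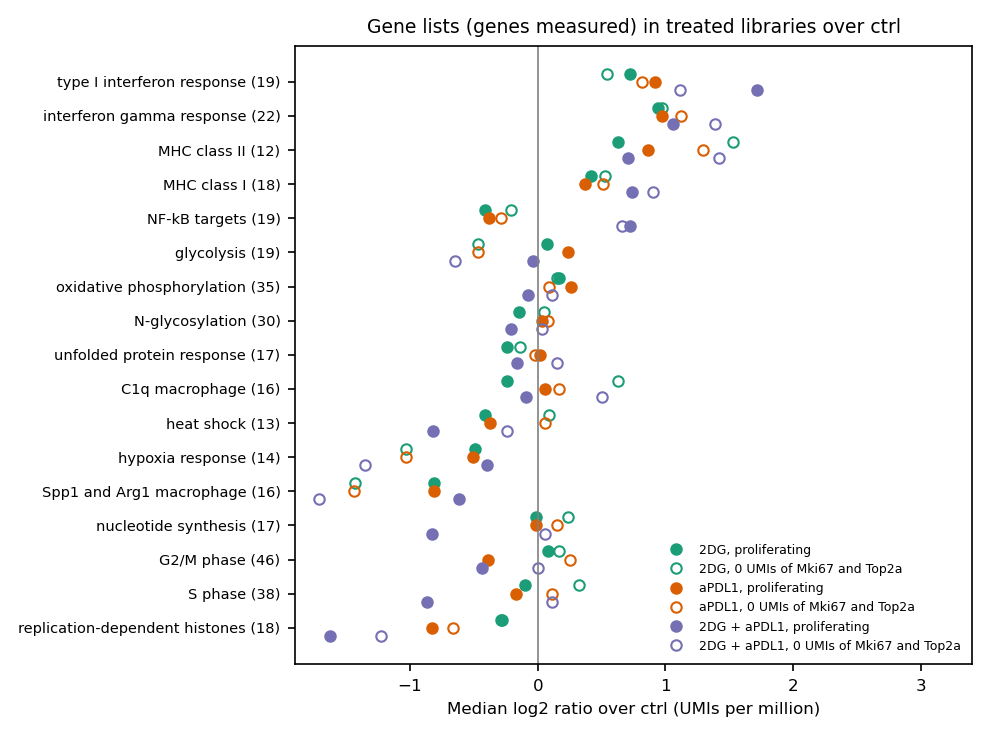
Median log2 ratio over ctrl of 17 gene lists in proliferating cells (filled) and in cells with 0 UMIs of Mki67 and Top2a (open), for the 3 treated libraries, with the number of genes measured in brackets. The interferon and MHC lists lie right of 0 in both kinds of cell, the histone list lies left of 0 in both, and the S phase list of the combination lies at -0.87 in proliferating cells and right of 0 in the others.

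Macrophage genes of hypoxia and wounding were lower with treatment. Of 16 Spp1 and Arg1 genes, 9, 9 and 8 were lower in 2DG, aPDL1 and combination members than in ctrl members and 1, 2 and 2 higher, with medians of -0.81, -0.81 and -0.62. Spp1, the secreted protein osteopontin, was at 630, 347 and 309 CPM, against 1101 CPM. Arg1, arginase 1, was at 1214, 1366 and 1244 CPM, against 1344 CPM, so this gene was not part of the difference in members, while non-proliferating cells had 2481, 2003 and 1711 CPM, against 4168 CPM in ctrl. Of 14 hypoxia response genes, 5, 7 and 4 were lower and 0, 1 and 0 higher, and the list medians were -0.49, -0.51 and -0.40. Of all genes, 9.5%, 10.3% and 16.7% were lower than in ctrl members and 6.1%, 7.58% and 8.99% higher. The hypoxia and the Spp1 and Arg1 lists are not independent, since Vegfa, Bnip3, Ndrg1, Egln3, Hilpda, Ero1l and Slc2a1 are in both. Hilpda, a lipid droplet gene induced by low oxygen, was at 29.9, 32.9 and 60 CPM, against 161 CPM.

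Fabp5, a fatty acid binding protein gene of the Spp1 and Arg1 list, differed in the other direction, at 320, 247 and 1050 CPM in 2DG, aPDL1 and combination members, against 97.8 CPM in ctrl members. Non-proliferating cells were in the same order, at 621, 623, 1143 and 283 CPM. Among genes of tissue macrophages, Pf4, platelet factor 4, was at 95.7, 72.5 and 67.9 CPM in members, against 429 CPM, and the transcription factor gene Maf at 144, 84.1 and 227 CPM, against 388 CPM. The whole C1q list of 16 genes had medians of -0.24, 0.06 and -0.09, so its genes differed from one another in direction.

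Heat shock genes were lower in treated members than in ctrl members. Hspa1b, an inducible chaperone of the HSP70 family, was at 131, 113 and 54.3 CPM with 2DG, aPDL1 and the combination, against 578 CPM, and 72.9% of the combination's UMIs came from 1 cell. At least 3 UMIs of it were found in 23.6%, 25% and 3.12% of members, against 58.7%, and after thinning in 11.4%, 8.06% and 1.56%, against 41.7%. Its near-identical copy Hspa1a was at 135, 81.2 and 126 CPM, against 631 CPM, and reads of the 2 genes can be hard to tell apart. Hsph1, a co-chaperone, was at 110, 89.9 and 60 CPM, against 465 CPM, and Bag3 at 37.6, 52.2 and 33.9 CPM, against 224 CPM. Of 13 heat shock genes 6, 5 and 7 were lower and 0, 1 and 0 higher, where 9.5%, 10.3% and 16.7% of all genes were lower. The list medians were -0.41, -0.37 and -0.82, while non-proliferating cells had 0.09, 0.06 and -0.24.

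NF-kB target genes, which carry inflammatory signals, set the combination apart. Of 19 measured, 16 were higher in combination members than in aPDL1 members and 14 higher than in 2DG members, none lower in either, where 7.17% and 6.16% of all genes were higher. The medians were 1.32 and 1.10. Over ctrl the 2DG, aPDL1 and combination medians were -0.41, -0.38 and 0.72, with 6, 3 and 10 genes higher and 9, 9 and 1 lower. There 6.1%, 7.58% and 8.99% of all genes were higher and 9.5%, 10.3% and 16.7% lower. In non-proliferating cells the medians over ctrl were -0.21, -0.29 and 0.66.

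Il1b, the cytokine interleukin 1 beta, was at 279, 371 and 1227 CPM in 2DG, aPDL1 and combination members, against 372 CPM in ctrl members, with at most 17.1% of the UMIs in 1 cell. Nfkbia, an inhibitor that NF-kB itself induces, was at 396, 356 and 947 CPM, against 661 CPM. Cxcl2, which draws neutrophils, was at 420, 857 and 2364 CPM, against 2212 CPM, so here the combination and ctrl were close. With likely doublets removed the 2DG and aPDL1 medians over ctrl were -0.01 and 0.09.

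The sugar pathways that 2DG touches differed little at the transcript level in members. Of 19 glycolysis genes 0, 0 and 1 were higher and 1, 2 and 1 lower in 2DG, aPDL1 and combination members than in ctrl members, with medians of 0.07, 0.24 and -0.04. Slc2a1, the glucose transporter GLUT1, was at 124, 120 and 128 CPM, against 163 CPM. Hk2, hexokinase 2, was at 157, 218 and 191 CPM, against 180 CPM. The non-proliferating cells had glycolysis medians of -0.47, -0.47 and -0.65 and Slc2a1 at 184, 191 and 160 CPM, against 397 CPM, so ctrl stood out there.

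Of 30 genes that build or trim N-linked glycans, 0, 1 and 1 were higher and 3, 2 and 6 lower, with medians of -0.15, 0.03 and -0.21. Over all genes, 6.1%, 7.58% and 8.99% were higher and 9.5%, 10.3% and 16.7% lower. Dpagt1, which starts the lipid-linked glycan precursor, was at 22.2, 25.1 and 22.6 CPM in 2DG, aPDL1 and combination members, against 26.1 CPM. Mgat5, which adds branches, was at 208, 238 and 279 CPM, against 266 CPM. Unfolded protein response genes had medians of -0.24, 0.02 and -0.16.

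By the rule of size, 142 genes (2% of 7096) were higher in members of each treated library than in ctrl members and 186 (2.62%) lower. The 5 highest were Ly6a, Ly6c2, Ccl8, Cxcl10 and Supv3l1. Ly6a, an interferon-inducible surface protein known as Sca-1, was at 398, 470 and 557 CPM, against 64.8 CPM, with log2 ratios of 2.62 with 2DG and 2.85 with aPDL1. At least 3 UMIs of it were found in 51.4%, 56.2% and 51.6% of treated members, against 18.8% of ctrl members, and after thinning in 28.6%, 32.3% and 37.5%, against 3.03%.

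Ly6c2 was at 191, 76.4 and 119 CPM, against 12.7 CPM, and was seen in 13, 10, 18 and 12 members of the 2DG, aPDL1, combination and ctrl libraries. Ccl8, a chemokine for monocytes, was at 393, 215 and 421 CPM, against 42.7 CPM, with 21.2% to 35.1% of its UMIs in 1 cell, and its 2DG ratio was -0.88 in members without C1q. Supv3l1, a helicase of mitochondrial RNA, was at 83.7, 98.6 and 92.8 CPM, against 19.6 CPM, and its combination ratio was -0.11 in members without C1q.

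The 5 lowest were Cstdc4, Fhit, Retnlg, Cxcl3 and Retnla. Fhit, of nucleotide metabolism, had 0, 3 and 0 UMIs in 2DG, aPDL1 and combination members, against 125 in ctrl members, where 10.9% of members held at least 3 UMIs, and 2.27% after thinning. Against a floor of 3 UMIs per library it was at least 17.7-fold lower with 2DG and at least 13.3-fold lower in the combination. Cstdc4, of the stefin protease inhibitors whose copies are alike, had 0 UMIs with 2DG and in the combination and 152 in ctrl members. It was at least 21.5-fold and 16.2-fold lower. Cxcl3, a chemokine for neutrophils, was at 0.854, 0.967 and 38.5 CPM, against 261 CPM. Retnlg is a neutrophil gene, at 203 CPM in non-proliferating ctrl cells, and 90.3% of the ctrl UMIs of Retnla came from 1 cell. The neutrophil list was at 20 or more UMIs in 15.9% of ctrl members and 20.7% of non-proliferating ctrl cells, and the part of free neutrophil RNA was not tested.

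**Figure D5:**
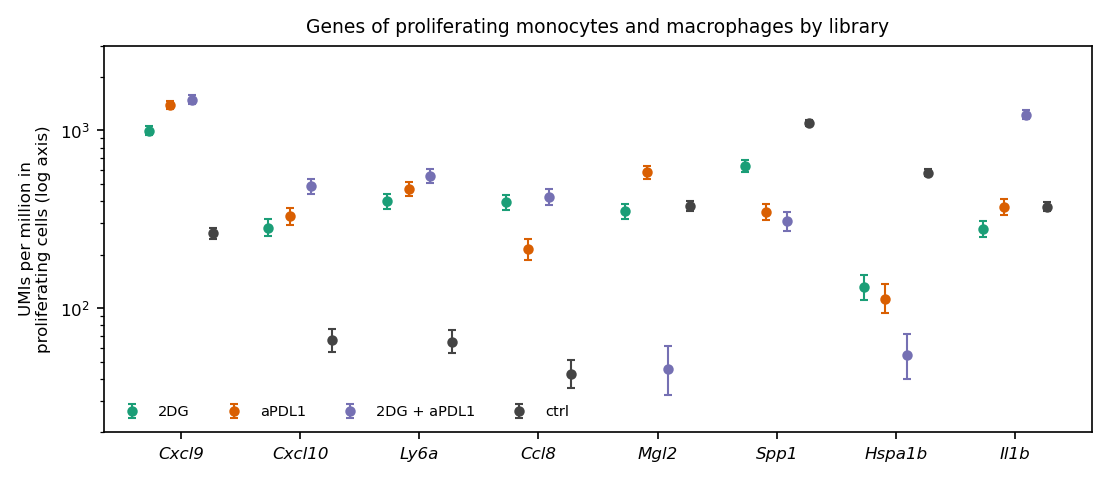
CPM of 8 genes in the proliferating cells of each library, on a log axis, with exact 95% Poisson intervals that cover counting error only. Cxcl9, Cxcl10, Ly6a and Ccl8 are lowest in ctrl, Spp1 and Hspa1b highest in ctrl, Mgl2 lowest in the combination at 45.3 CPM and Il1b highest there at 1227 CPM.

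A comparison for 2DG took genes that differed the same way in 2DG over ctrl and in the combination over aPDL1. It held 77 higher genes (1.09%) and 62 lower (0.874%). Of the 5 highest, Ngp, Camp, Ltf and Lcn2 are granule genes of neutrophils and their precursors, and 75.1% to 99.2% of their UMIs with 2DG came from 1 cell, as did 99.1% to 100% in the combination. Without the members holding genes of other cell types, Ltf over ctrl and Lcn2 in both pairs changed sign, as did Camp and Ltf over aPDL1. The fifth, Adgre4, an adhesion receptor of non-classical monocytes, was at 51.3 CPM with 2DG, against 1.45 CPM in ctrl, and at 90.5 CPM in the combination, against 9.67 CPM with aPDL1. It was seen in 13, 5, 16 and 2 members of the 2DG, aPDL1, combination and ctrl libraries.

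The lower genes of the 2DG pairs were Dcstamp, Fgf13, St18, Pard3b and Cdh1. Dcstamp, needed for the fusion of macrophages, was at 8.54 CPM with 2DG, against 51.4 CPM in ctrl, and at 2.26 CPM in the combination, against 48.3 CPM with aPDL1. Fgf13 was at 29.9 CPM with 2DG, against 150 CPM in ctrl, and at 17 CPM in the combination, against 79.3 CPM with aPDL1. Cdh1, the gene of E-cadherin, was at 12 CPM with 2DG, against 31.9 CPM in ctrl, and at 33.9 CPM in the combination, against 87 CPM with aPDL1. St18 and Pard3b changed sign over aPDL1 in members without C1q.

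For aPDL1, the genes had to differ alike between aPDL1 and ctrl and between the combination and 2DG, with 59 genes higher (0.831%) and 75 lower (1.06%). The 5 highest were Ly6i, Spon1, Rsad2, Irf7 and Cfb. Irf7, a transcription factor of the type I interferon response, was at 67.7 CPM with aPDL1, against 13.4 CPM in ctrl, and at 60 CPM in the combination, against 21.4 CPM with 2DG. Cfb, complement factor B, was at 97.6 CPM with aPDL1, against 37 CPM in ctrl, and at 157 CPM in the combination, against 52.1 CPM with 2DG. Spon1, spondin 1 of the extracellular matrix, was at 80.2 CPM with aPDL1, against 17.8 CPM in ctrl, and at 242 CPM in the combination, against 73.5 CPM with 2DG. Spon1 and Ly6i were also higher with 2DG than in ctrl, with log2 ratios of 2.04 and 3.77.

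The 5 lower genes of the aPDL1 pairs were Dach1, Ccl22, S100a9, Hspa1b and Wfdc21. The Ccl22 chemokine was at 4.83 CPM with aPDL1, against 18.8 CPM in ctrl, and had 0 UMIs in the combination, against 53 CPM with 2DG, of which 1 cell held 80.6%. Without likely doublets its log2 ratio of aPDL1 over ctrl was 0.19. Hspa1b, given above, had a ratio of 0.32 for the combination over 2DG in members with C1q. S100a9 and Wfdc21 are neutrophil genes and changed sign over 2DG without the members holding genes of other cell types. Dach1, a transcription factor gene, was at 0.967 CPM with aPDL1, against 35.9 CPM in ctrl, and at 11.3 CPM in the combination, against 88 CPM with 2DG, of which 1 cell held 63.1%. Both treatment comparisons use the same 4 libraries.

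The combination lay at least 1.5-fold above all 3 other libraries for 185 genes (2.61%) and below them for 166 (2.34%). The 5 highest, Tenm3, Acta2, Sparc, Cald1 and Nav3, are genes of stromal and muscle cells or of cell adhesion and movement, and 92.4% to 100% of their UMIs came from 1 cell. Of the 5 lowest, Ccl17, a chemokine for CCR4 that dendritic cells and macrophages make, had 0 UMIs in the combination, against 160 CPM with 2DG, 89.9 CPM with aPDL1 and 90.9 CPM in ctrl, or at least 47.1-fold, 26.5-fold and 26.8-fold lower. It was seen in 11, 5, 0 and 20 members of the 2DG, aPDL1, combination and ctrl libraries, and 1 cell held 58.3% of its UMIs with 2DG, 39.8% with aPDL1 and 21.5% in ctrl.

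Mgl2, a galactose-type lectin of macrophages and dendritic cells that binds glycans, was at 45.3 CPM in the combination, against 351 CPM with 2DG, 580 CPM with aPDL1 and 374 CPM in ctrl. At least 3 UMIs of it were found in 7.81% of combination members (5 of 64 cells, 95% interval 2.59 to 17.3), against 36.1% with 2DG (26 of 72), 50% with aPDL1 (32 of 64) and 47.8% in ctrl (66 of 138). After thinning the shares were 3.12%, against 18.6%, 33.9% and 24.2%. Among members with at least 6 UMIs of Mki67 and Top2a they were 20%, against 43.2%, 75% and 60.7%.

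In non-proliferating cells Mgl2 was rarer everywhere, at 2.91% in the combination, against 6.89%, 5.79% and 6.68% with 2DG, with aPDL1 and in ctrl. Members exceeded the non-proliferating cells of their library by log2 ratios of 2.14 with 2DG, 2.79 with aPDL1, 0.45 in the combination and 2.14 in ctrl. The dendritic cell list reached 20 UMIs in 9.72%, 14.1%, 6.25% and 7.97% of 2DG, aPDL1, combination and ctrl members, against 1.88%, 1.21%, 1.07% and 1.99% of non-proliferating cells, and its part in the Mgl2 and Ccl17 values was not tested.

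Mmp12, macrophage elastase, was at 12.4 CPM in the combination, against 122 CPM with 2DG, 263 CPM with aPDL1 and 180 CPM in ctrl, with 3, 12, 15 and 40 members holding it in that order. In members without C1q its log2 ratio of the combination over 2DG was 1.89. Sfxn1, a mitochondrial serine carrier, was at 9.05 CPM, against 43.6, 58 and 43.8 CPM. Cenpp was at 20.4 CPM, against 75.2, 85.1 and 117 CPM. The combination also held the largest share of members at exactly 3 UMIs of Mki67 and Top2a, and the part of this in the 3 values was not tested.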

How the data were processed

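The deposited matrices hold raw UMI counts of 32285 genes by barcode. Cell Ranger 7.0.0 is named per the file headers and Cell Ranger 3.1.0 with mm10 per the submitters' processing notes, and the sources used here do not settle which made the counts. Barcodes with fewer than 500 genes, or with over 10% of their UMIs mitochondrial, were dropped. Member counts were summed per library, and log2 ratios of CPM (UMIs per 1000000) used counts plus 0.5 over genes with at least 100 UMIs in all members. Shares carry Clopper-Pearson and CPM exact Poisson 95% intervals, for counting error only. Reads that map equally to related genes, and intronic reads, depend on settings that these sources do not state.

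Doublets were kept in the main results; leaving out the highest Scrublet scores (scanpy 1.11.5), at 0.8% per 1000 barcodes, was an alternative. Python 3.11.15, numpy 2.4.6, scipy 1.17.1, pandas 2.3.3 and edgeR 4.0.16 (TMM factors only) were used. For each pattern up to 5 genes per direction were named, ranked by the smallest ratio among the pairs it needs, and up to 10 for members over non-proliferating cells. Genes of the 34 lists could also be named. The size rule and ratios were tested on simulated data. Members and lists were chosen with earlier results of these data known. The lists hold 632 genes, of which 3 had no matching symbol. Some lists share genes, such as Tyms, Rrm1 and Rrm2 of S phase and nucleotide synthesis, so their medians are not independent. With genes at 0 UMIs set to a floor of 3 counts, every list median of members between libraries printed in the main results was the same. No such check is given for list medians that involve non-proliferating cells.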

Additional observations from a re-analysis of the deposited data

How the results depend on the processing

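No paired analysis was possible because each group has 1 library. Each choice was changed alone, and values run 2DG, aPDL1, combination, ctrl. Ctrl had the highest share of proliferating cells throughout. With at least 2 UMIs of Mki67 and Top2a the shares were 7%, 5.11%, 5.42% and 7.96% of monocytes and macrophages and 1.59%, 1.39%, 1.45% and 2.2% of all cells. With at least 5 they were 2.39%, 1.38%, 1% and 3.94%, and 0.541%, 0.376%, 0.269% and 1.09%. By Pclaf, Birc5 and Tyms they were 2.67%, 1.78%, 1.04% and 4.3%. After thinning they were 2.43%, 1.33%, 0.909% and 3.61%, the S to G2/M ratio was 0.441, 0.498, 0.401 and 0.482, 50% of aPDL1 and 42.4% of ctrl members held Spp1 or Arg1, and 62.1% of ctrl members MHC class II.

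Counts of genes depended on which were counted, given as higher and lower. Without the low-count filter they were 2552 and 928 for all treated over ctrl, 1387 and 777 for the 2DG pairs, 1317 and 824 for the aPDL1 pairs, and 1712 and 1554 for the combination over the others. With at least 5 UMIs, 93 were higher in all treated, 30 and 37 in the 2DG pairs, 19 and 43 in the aPDL1 pairs, and 101 lower in the combination. Without likely doublets, 48 were lower in the aPDL1 pairs and 104 in the combination. With C1q members the aPDL1 pairs gave 27 and 26. Members without C1q gave 42 and 123 for all treated, 23 and 31 for the 2DG pairs, 37 lower for the aPDL1 pairs, and 80 and 16 for the combination. Depth-matched cells left 150 and 41 genes higher and lower in members.

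These log2 ratios of named genes, and of lists whose median was past 1.5-fold, changed sign, as did smaller list medians, and the cause was not tested. Against depth-matched cells the smallest difference became 0.01 for Apoc1, -0.11 for Arhgef37 and -0.24 for 9630028H03Rik. Without likely doublets Pard3b was 0.38 (combination over aPDL1), Ccl22 0.19 (aPDL1 over ctrl) and the neutrophil list 0.96 (combination over ctrl). In C1q members the combination over aPDL1 was -1.11 for Camp and for Ltf, -2.33 for Acta2 and -1.64 for Cald1. Over 2DG it was 0.32 for Hspa1b, 1.67 for Wfdc21, -1.88 for Acta2, -3.46 for Sparc, -0.78 for Cald1 and 0.45 for the neutrophil list, and over ctrl -1.47 for Sparc and -1.55 for Cald1. In members without C1q, 14 to 23 cells a library, 2DG over ctrl was -0.88 for Ccl8, 1.97 for Retnlg and -0.08 for MHC class II, and aPDL1 over ctrl 0.79 for Cstdc4 and for Retnla. There the combination over ctrl was -0.11 for Supv3l1, 0.16 for Retnlg and for Retnla, -0.01 for MHC class II, 0.29 for the neutrophil list and 0.03 for nucleotide synthesis. Over aPDL1 it was 2.18 for St18, 0.95 for Pard3b, -0.36 for type I interferon, 0.40 for histones and 0.31 for nucleotide synthesis, and over 2DG 1.89 for Mmp12.

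Leaving out members with genes of other cell types was chosen after seeing the data. Then 2DG over ctrl was -0.71 for Ltf and -5.34 for Lcn2. The combination over aPDL1 was -1.24 for Camp and for Ltf, -2.16 for Lcn2, -0.88 for Acta2 and -2.47 for Cald1. Over 2DG it was 2.60 for S100a9, 3.17 for Wfdc21, -0.37 for Acta2, -2.13 for Sparc, -0.85 for Cald1 and 2.44 for the neutrophil list, and over ctrl -0.10 for Sparc and -1.85 for Cald1. Under TMM factors and median-of-ratios factors, no named gene changed sign and no count of genes moved by over 1.5 times. Depth limits genes of few UMIs, and 64 members in a library bound a share loosely.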

Other observations

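Non-classical monocyte genes, of the patrolling monocytes that stay in blood vessels, stood above ctrl in 2DG and combination members. Of 7 measured, 5, 1 and 4 were at least 1.5-fold higher with 2DG, aPDL1 and the combination, and 1 was lower in each, with medians of 1.58, 0.41 and 1.55. Of all genes, 6.1%, 7.58% and 8.99% were higher and 9.5%, 10.3% and 16.7% lower. A gene with fewer than 50 UMIs in both libraries of a pair was not counted, which limits these counts. In non-proliferating cells the list medians over ctrl were 0.79, 1.15 and 0.89, so there aPDL1 was above ctrl as well. Treml4, a receptor of these monocytes, was at 42.7, 40.6 and 47.5 CPM, against 6.88 CPM in ctrl. Ace, angiotensin-converting enzyme, was at 20.5, 6.77 and 41.9 CPM, against 2.17 CPM. The classical monocyte list of 14 genes had medians of 0.10, -0.06 and 0.30.

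Il10, the gene of an anti-inflammatory cytokine, was at 4.27, 5.8 and 29.4 CPM in 2DG, aPDL1 and combination members, against 7.25 CPM in ctrl members. Growth factor and receptor genes had medians of -0.13, -0.27 and -0.07, and genes of ligands that inhibit T cells -0.03, 0.09 and 0.23.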
